A study of Sus scrofa with 9 samples.

Results

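The 62 genes described here encode splicing factors and heterogeneous nuclear ribonucleoproteins (hnRNPs) of the pig. They are all genes on the array whose single annotated symbol begins with SRSF, HNRNP, SNRP, SF3A, SF3B, U2AF or PRPF, or with LSM and a digit, and they make up 62 of the 6765 named genes. By family they comprise 11 SRSF genes, 17 HNRNP genes, 10 SNRP genes, 7 SF3 genes, 2 U2AF genes, 9 PRPF genes and 6 LSM genes. Each gene is represented by its brightest probe set, a group of short probes against 1 transcript, and 35 further probe sets of 21 of these genes served as a check. Transcript levels were measured in coronary arterial endothelial cells, the inner lining of the heart's arteries, on 9 Affymetrix arrays in 3 groups of 3. Passage 4 cells came from primary cultures carried through weekly passages, and the labels call them senescent. Regenerated cells had regrown in the animal after the endothelium was stripped off, and were scraped from the vessel and kept in culture without any passage. Passage 1 cells, grown in primary culture for 1 week, were the controls. No drug or gene alteration is given for any group, and all cells were collected in the basal state. Labelled RNA was made from 1 ug of total RNA at passage 4 and passage 1 and from 0.5 to 1 ug for regenerated cells, so input and group cannot be told apart there. Whether the 3 arrays of a group stem from separate animals or cultures is not given, so the p-values below rest on array-to-array spread that could be technical.

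The spliceosome removes introns from precursor messenger RNA and is built from small nuclear RNAs in protein particles called snRNPs. A ring of Sm proteins (SNRP genes) surrounds most of these RNAs, and a ring of LSM proteins surrounds the U6 RNA. The U1 particle marks the start of an intron, U2AF and the SF3A and SF3B complexes place the U2 particle at its end, and many PRPF proteins act in the U4/U6 and later steps. SR proteins (SRSF genes) bind exons and promote the use of nearby splice sites. The hnRNPs coat nascent transcripts, often repress splice sites, and also act in RNA stability and export. In human cells, senescence in culture is known to go with altered levels of many splicing factors.

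Signals are MAS5 values on a linear scale, and differences are given on the log2(signal + 16) scale, where 1 is a doubling for a bright gene. Precision is limited by the 3 arrays per group. Bacterial spike-in transcripts separated the arrays by how far the label reached toward the far end of a transcript. In that measure passage 1 array 1 fell with the 3 passage 4 arrays (mean log2 difference of far and near end from -1.89 to -1.62), and passage 1 arrays 2 and 3 fell with the 3 regenerated arrays (from -4.55 to -3.82). This split, called labelling kind here, is read from the spike-ins alone, and whether it marks a reagent, scan or other batch is not given. All passage 4 arrays are of one kind and all regenerated arrays of the other. Labelling kind can thus be set apart from these groups through the passage 1 arrays alone. A fit with labelling kind as a block is given beside the calls below. In it passage 4 cells are compared with passage 1 array 1 alone, and regenerated cells with passage 1 arrays 2 and 3. Passage 4 and regenerated cells are compared through these arrays. Block values of both comparisons with passage 4 thus hinge on passage 1 array 1 and cannot decide a call. The same log2 difference on the cells' own actin transcript ran from -0.58 to -0.34 in passage 4 arrays, -2.78 to -1.56 in regenerated arrays and -1.66 to -0.58 in passage 1 arrays, and its part in the results was not tested. The endothelial genes PECAM1 and CDH5 averaged at least 6981 in every group, while VWF and KDR were below the filter for dim probe sets. Of 10 endothelial genes tested, 7 were lower than at passage 1 in passage 4 cells and 7 in regenerated cells. NOS3 was called lower at passage 4 (log2 -0.97, adjusted p = 0.045; -0.55 and 0.48 with the block), and in regenerated cells CLDN5 was called lower (-1.62, adjusted p = 0.0134) and ENG higher (1.92, adjusted p = 0.0153), both also with the block. Of 11 measured leukocyte markers 1 passed that filter. Summed signals of 7 fibroblast markers ran from 1969 to 2590 in regenerated arrays, 916 to 1148 in passage 4 arrays and 517 to 822 in passage 1 arrays, and FAP, LUM and THY1 were higher in regenerated than in passage 1 cells, LUM not with the block (3.31, adjusted p = 0.0742). Summed signals of 7 smooth muscle markers ran from 34419 to 50233 in regenerated arrays, 19346 to 36753 in passage 4 arrays and 18537 to 40505 in passage 1 arrays. In such bulk RNA, fewer cells of a type and less RNA per cell cannot be told apart, and the part of other cells in the results below was not tested.

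Splicing factor transcripts differed little between passage 4 and passage 1 cells. SNRPF, an Sm ring protein, was the 1 gene of the 61 tested that rose (adjusted p under 0.05 in limma), and 0 fell. That is 1.64% of the genes, against 4.79% of all 15299 tested probe sets (2.71% higher and 2.08% lower) and 4.82% of the brightest probe sets of 5493 named genes. At an unadjusted p under 0.05, 3 genes were higher and 1 lower. Of all 15299 tested probe sets 1835 were higher and 1173 lower at that threshold, 19.7% in either direction. The median log2 difference was 0.08, against 0.04 for all tested probe sets. Higher in passage 4 cells were 38 genes and lower 23, but with each array centred on its median signal 20 were higher and 41 lower. That centring moved the median of all tested probe sets by -0.16. For 60 of 61 genes (98.4%) the 95% interval of the difference lay within a doubling or halving. This held for 62% of all tested probe sets and 71.1% of the named genes. The median standard error was 0.19 for the 61 genes, against 0.27 and 0.23, so such shares also reflect how tight the errors are. In 9 genes (14.8%) every passage 4 array lay above every passage 1 array, and in 3 (4.92%) below, against 15.3% and 9.61% of all tested probe sets and 11.6% and 12.3% of the named genes.

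Regenerated cells had lower levels than passage 1 cells for 42 of the 61 genes and higher levels for 19, with a median log2 difference of -0.16 against -0.01 for all tested probe sets. HNRNPK, a C-rich RNA binding protein, was the 1 gene that fell, and 0 rose. A second bright probe set of HNRNPK had the opposite sign (0.30), and with labelling kind as a block the first did not pass (-0.64, adjusted p = 0.096), while PRPF38A (-0.95, adjusted p = 0.0462) and SRSF1 (-0.60, adjusted p = 0.0483) did. The 1 call as deposited is 1.64% of the genes, against 5.49% of all tested probe sets (2.98% higher and 2.51% lower) and 5.93% of the named genes. At an unadjusted p under 0.05, 8 genes were lower and 0 higher. Of all 15299 tested probe sets 1652 were lower and 1711 higher at that threshold, 22% in either direction. In 8 genes (13.1%) every regenerated array lay below every passage 1 array, against 10.8% of all tested probe sets and 12.9% of the named genes. In 0 genes did every regenerated array lie above, against 12.3% and 10.8%. The 95% interval lay within a doubling or halving for 55 genes (90.2%), against 59% of all tested probe sets and 68.2% of the named genes.

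Passage 4 cells had higher levels than regenerated cells for 47 of the 61 genes and lower levels for 14. This comparison tests the difference between the other two, because the shared passage 1 arrays cancel. The genes that were higher past the threshold were SNRPF, HNRNPK, HNRNPA1, SRSF1, LSM3, SNRPB and HNRNPC, which is 7 of 61, and 0 were lower. Their share of 11.5% stands against 12.5% of all tested probe sets (8.14% higher and 4.35% lower) and 10.7% of the named genes. At an unadjusted p under 0.05, 18 genes were higher and 0 lower. Of all 15299 tested probe sets 2588 were higher and 1794 lower at that threshold, 28.6% in either direction. The median log2 difference was 0.22, against 0.01 for all tested probe sets. All 3 passage 4 arrays lay above all 3 regenerated arrays for 23 genes (37.7%), against 20.1% of all tested probe sets and 19.2% of the named genes. The opposite held for 2 genes (3.28%), against 16.1% and 17.3%. With each array centred on its median signal, 39 genes were higher and 22 lower and the median was 0.095. Relative to the median of all tested probe sets 47 genes were higher, a count that this centring cannot change because it shifts all probe sets of an array alike. That centring also moved the upward share of all called probe sets to 52.3%, against 65.2% as deposited, and in passage 4 against passage 1 cells to 39.7%, against 56.6%. The 95% interval lay within a doubling or halving for 51 genes (83.6%), against 55.1% of all tested probe sets and 64.4% of the named genes. With labelling kind as a block the median was 0.46 and 0 of the 61 genes passed in limma, with 35 passing among all tested probe sets, where the median standard error of the genes was 0.33 in place of 0.19.

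**Figure D1:**
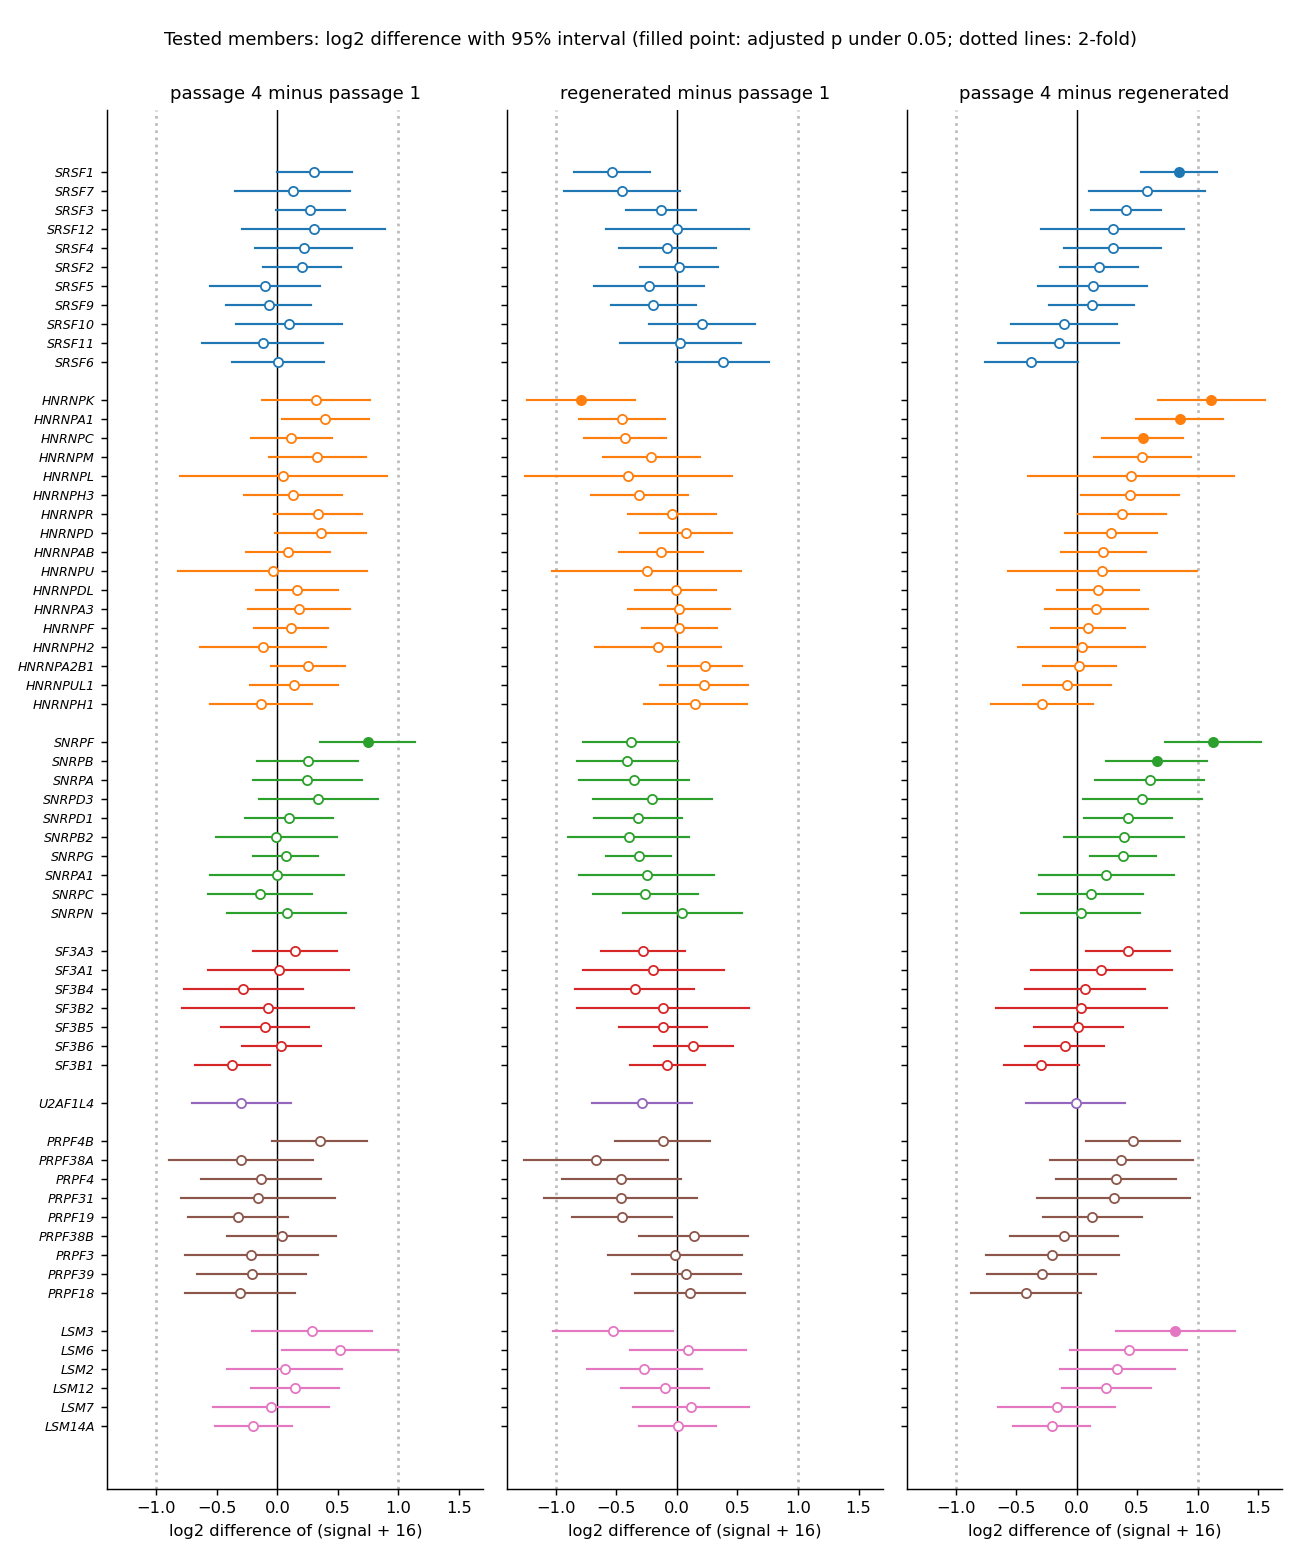
Log2 difference of the 61 tested genes with its 95% interval in passage 4 minus passage 1, regenerated minus passage 1 and passage 4 minus regenerated cells, grouped by family (horizontal axis: log2 difference of signal + 16; filled points passed adjusted p under 0.05; dotted lines mark a doubling and a halving). Most points lie between the dotted lines, 1 point is filled in each of the first 2 panels, and 7 are filled in the third, all to the right of 0.

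SR proteins promote exon recognition, and among their 11 genes SRSF1 alone passed, in passage 4 against regenerated cells. SRSF1, the founding SR protein, had signals of 3606, 3456 and 3189.8 in passage 4 arrays, 1932, 1801 and 1953 in regenerated arrays and 2522, 2678 and 3097 in passage 1 arrays. No array of one group overlapped those of another, with passage 4 highest and regenerated lowest. Its level was higher in passage 4 than in regenerated cells (log2 difference 0.84, SE 0.14, adjusted p = 0.00504). Against passage 1 cells it was at 0.31 in passage 4 (adjusted p = 0.265) and at -0.54 in regenerated cells, short of the threshold (adjusted p = 0.0515) but past it with the labelling block (-0.60, adjusted p = 0.0483). SRSF1 has 3 tested probe sets, and the others also passed in passage 4 against regenerated cells (log2 0.60 and 0.98, adjusted p = 0.0322 and 0.00461), though not with the labelling block (0.43 and 1.08, adjusted p = 0.456 and 0.124). The dimmest of the 3 also fell in regenerated against passage 1 cells (log2 -0.68, adjusted p = 0.0353), also with the block (-0.71, adjusted p = 0.0468). With labelling kind as a block the difference between passage 4 and regenerated cells on the brightest probe set was 1.03, which missed the threshold (adjusted p = 0.0989), the single one of 22 alternatives in which the call was lost (adjusted p from 0.00292 to 0.0989).

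SRSF3, the smallest SR protein and also an adaptor for RNA export, had signals of 6443, 6762 and 6703 at passage 4, 5165, 4927 and 4916 in regenerated cells and 5758, 4697 and 6115 at passage 1. The passage 4 arrays lay above all others, and the regenerated arrays overlapped with passage 1. Its difference between passage 4 and regenerated cells was 0.41 and did not pass (adjusted p = 0.065). SRSF7, a related export adaptor, was at 0.58 there (adjusted p = 0.103), with signals of 6753, 6104 and 6155 at passage 4, 5551, 3592 and 3779 in regenerated cells and 4443, 5503 and 7959 at passage 1. In SRSF7 the 3 passage 1 arrays spread more widely than the other groups, and array 3 was highest. SRSF2, which is also a marker of nuclear speckles, averaged 8669 ± 365 at passage 4, 7673 ± 1131 in regenerated cells and 7581 ± 1089 at passage 1 (SD, n = 3). The groups overlapped, with log2 differences of 0.20 for passage 4 and 0.02 for regenerated cells from passage 1. SRSF6 ran the other way, with 4071, 6072 and 5540.0 in regenerated cells against 4702, 3697 and 3579 at passage 1 (log2 difference 0.38, adjusted p = 0.233). Passage 4 arrays of SRSF6 were at 3724, 3905 and 4322, a log2 difference of -0.37 from regenerated cells (adjusted p = 0.186). Its next brightest probe set had the opposite signs, at -0.23 and 0.31, with every passage 4 array above every regenerated array. The dimmer ones were at 0.43, 0.18, 0.39 and 0.32 in regenerated against passage 1 cells. In passage 4 against regenerated cells they were at -0.39, -0.09, -0.10 and 0.03. None of these passed. Over the family the median in passage 4 against regenerated cells was 0.19 (0.06 with median centring), with 8 of 11 genes higher. The 1 gene past the threshold is 9.09% of the family, against 12.5% of all tested probe sets. The remaining SR genes, SRSF4, SRSF5, SRSF9, SRSF10, SRSF11 and SRSF12, were between -0.15 and 0.30 there and none passed.

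The hnRNP family held 3 of the 7 genes called higher in passage 4 than in regenerated cells, HNRNPA1, HNRNPC and HNRNPK. That is 17.6% of its genes, against 12.5% of all tested probe sets. Of its 17 genes 15 were higher there (12 with median centring), with a median of 0.22 (0.095 with median centring). HNRNPA1, a splicing repressor and a shuttling packaging protein, had signals of 7283, 8454 and 7136 in passage 4 arrays, 4834, 3897 and 3953 in regenerated arrays and 5680.4, 4794 and 7048 in passage 1 arrays. All passage 4 arrays lay above all the others, while regenerated array 1 overlapped with passage 1 array 2. Between passage 4 and regenerated cells it differed past the threshold (log2 difference 0.85, SE 0.16, adjusted p = 0.00798). Against passage 1 cells the differences of 0.40 and -0.45 did not pass (adjusted p = 0.202 and 0.128). With labelling kind as a block the difference between passage 4 and regenerated cells was 0.88 (adjusted p = 0.181), the 1 of 22 alternatives that did not pass (adjusted p from 0.00516 to 0.181).

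HNRNPC, which binds uridine tracts and forms the core of the hnRNP particle, had 4607, 6016 and 5789 in passage 4 arrays, 4114, 3137 and 3989.9 in regenerated arrays and 4940.1, 5175 and 4937 in passage 1 arrays. Every regenerated array lay below every other array, and passage 4 and passage 1 overlapped. The difference between passage 4 and regenerated cells passed (log2 difference 0.54, SE 0.15, adjusted p = 0.0389), but in 13 of 22 alternatives it did not (adjusted p from 0.0247 to 0.982). The labelling block gave 0.58 (adjusted p = 0.315). A second, dim probe set of HNRNPC averaged 125 ± 47.6 at passage 4 and 121 ± 23.6 in regenerated cells, a difference of 0.01.

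In HNRNPK 2 bright probe sets disagreed. Its brightest probe set had 7268, 7080.1 and 6957 in passage 4 arrays, 4525, 2563 and 3016 in regenerated arrays and 7027, 4954 and 5280.1 in passage 1 arrays. All regenerated arrays were lowest, and passage 1 array 1 reached into the range of passage 4. It was lower in regenerated than in passage 1 cells (log2 difference -0.79, SE 0.20, adjusted p = 0.0447) and higher in passage 4 than in regenerated cells (log2 difference 1.11, SE 0.20, adjusted p = 0.00658). The second probe set had 2704, 3232 and 2889.8 in passage 4 arrays, 3534, 3292 and 2982 in regenerated arrays and 2533, 2720.1 and 2684 in passage 1 arrays. There the regenerated arrays were above all passage 1 arrays and overlapped with passage 4. Its log2 differences were 0.30 in regenerated against passage 1 cells and -0.15 in passage 4 against regenerated cells, opposite in sign to the brightest probe set, and neither passed. The fall against passage 1 passed in 8 of 22 alternatives (adjusted p from 0.0077 to 0.379), and with labelling kind as a block it was -0.64 (adjusted p = 0.096). Leaving out any 1 of the passage 4 or passage 1 arrays, or regenerated array 2 or 3, ended that call, with adjusted p from 0.0577 to 0.155. Between passage 4 and regenerated cells the block gave 0.66 (adjusted p = 0.34; from 0.00128 to 0.518 over the alternatives).

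HNRNPM, a splicing regulator, had 3238, 3566 and 3073 in passage 4 arrays, 2751, 1922 and 2155 in regenerated arrays and 2202, 2521 and 3202 in passage 1 arrays. Passage 4 and regenerated arrays did not overlap, and the difference of 0.54 did not pass (adjusted p = 0.0757). HNRNPD, also called AUF1 and known for binding AU-rich elements of unstable mRNAs, averaged 5124 ± 96.9 at passage 4, 4276 ± 898 in regenerated cells and 4019 ± 539 at passage 1 (SD, n = 3). Its difference between passage 4 and passage 1 was 0.36 (adjusted p = 0.287). HNRNPA2B1, a partner of HNRNPA1 in the hnRNP core, averaged 7231 ± 169 at passage 4, 7193 ± 1214 in regenerated cells and 6062 ± 239 at passage 1. Passage 4 and regenerated cells differed there by 0.02, with a 95% interval from -0.28 to 0.33. HNRNPL, a regulator that binds CA repeats, ranged from 1028 to 2963 among regenerated arrays and from 1899.6 to 4257 among passage 1 arrays, and its 95% interval reached from -0.40 to 1.30 in passage 4 against regenerated cells. HNRNPU, a nuclear scaffold protein, was dim, at 112 ± 35.4 at passage 4, 97.4 ± 45.8 in regenerated cells and 118 ± 46.2 at passage 1, and its interval in passage 4 against regenerated cells ran from -0.57 to 0.99. The current RefSeq entry behind the HNRNPU probe set, like those of PRPF38A and SNRPB, is typed as a long noncoding RNA, so which transcript these 3 probe sets measured is not settled here.

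The SNRP genes encode Sm ring and other snRNP proteins, and all 10 were higher in passage 4 than in regenerated cells, with a median of 0.41. Past the threshold were 2 (20%, against 12.5% of all tested probe sets). With median centring 8 of the 10 were higher, with a median of 0.28. In 6 of the 10 every passage 4 array lay above every regenerated array, which held for 20.1% of all tested probe sets. Against passage 1, 9 of 10 were lower in regenerated cells (median -0.32, or -0.35 with median centring, 0 past the threshold) and 7 of 10 were higher at passage 4 (median 0.09, 1 past the threshold), or 4 of 10 with a median of -0.07 after median centring.

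SNRPF, the Sm protein F of the ring, had signals of 1058, 1018 and 1114 in passage 4 arrays, 467, 546 and 428 in regenerated arrays and 678, 554 and 657 in passage 1 arrays. The 3 groups did not overlap, with passage 4 highest and regenerated lowest. It rose at passage 4 against passage 1 (log2 difference 0.75, SE 0.18, adjusted p = 0.0391) and was higher than in regenerated cells (log2 difference 1.13, SE 0.18, adjusted p = 0.00396). In regenerated against passage 1 cells it stood at -0.38, short of the threshold (adjusted p = 0.244). With labelling kind as a block the difference from passage 1 was 0.64 and did not pass (adjusted p = 0.296). The call against passage 1 was lost in 11 of 22 alternatives (adjusted p from 0.0288 to 0.296), among them the fits without passage 1 array 2 or 3, without any 1 of the passage 4 arrays and without regenerated array 3. Against regenerated cells it was lost under the labelling block alone (0.96, adjusted p = 0.164; from 0.00221 to 0.164 over the alternatives). SNRPF has 1 probe set on the array.

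SNRPB, which encodes the Sm proteins B and B', had 3516, 2726 and 3418 in passage 4 arrays, 2459.8, 1611 and 2075 in regenerated arrays and 2323, 2713 and 3084 in passage 1 arrays. Passage 4 arrays lay above all regenerated arrays, and passage 1 overlapped with both. Its difference between passage 4 and regenerated cells passed (log2 difference 0.66, SE 0.19, adjusted p = 0.0426), in 11 of 22 alternatives (adjusted p from 0.0219 to 0.177), and was 0.97 with labelling kind as a block (adjusted p = 0.177). SNRPN, a close relative of SNRPB and an imprinted gene, averaged 2755 ± 554 at passage 4, 2742 ± 779 in regenerated cells and 2585 ± 265 at passage 1 (SD, n = 3), with a difference of 0.03 between passage 4 and regenerated cells. A dimmer probe set of SNRPN was at 0.36 there, with every passage 4 array above every regenerated array. In passage 4 against passage 1 cells it was at 0.40, and neither difference passed (adjusted p = 0.249 and 0.302). Transcripts as alike as those of SNRPB and SNRPN may share probes, so their values are uncertain.

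SNRPG, the Sm protein G, had 6223, 6648 and 6245 in passage 4 arrays and 4849, 5279 and 4527 in regenerated arrays, against 5598, 6329 and 6319 at passage 1. Regenerated arrays lay below all the others. The log2 difference was 0.38 for passage 4 minus regenerated (adjusted p = 0.0636) and -0.32 for regenerated minus passage 1 (adjusted p = 0.16). SNRPD1, the Sm protein D1, was at 0.42 in passage 4 against regenerated cells (adjusted p = 0.118), with 4258, 3942 and 4382 in passage 4 arrays and 3202, 3591 and 2641 in regenerated arrays, against 3302, 3903 and 4644 in passage 1 arrays. SNRPD3, the Sm protein D3, was at 0.54 there and SNRPA, the U1 A protein, at 0.60, and neither passed (adjusted p = 0.137 and 0.0783). In both genes the passage 4 arrays lay above all regenerated arrays. The U1 C protein gene SNRPC and the U2 protein genes SNRPA1 and SNRPB2 had log2 differences of 0.12, 0.25 and 0.39 there, with overlapping groups.

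**Figure D2:**
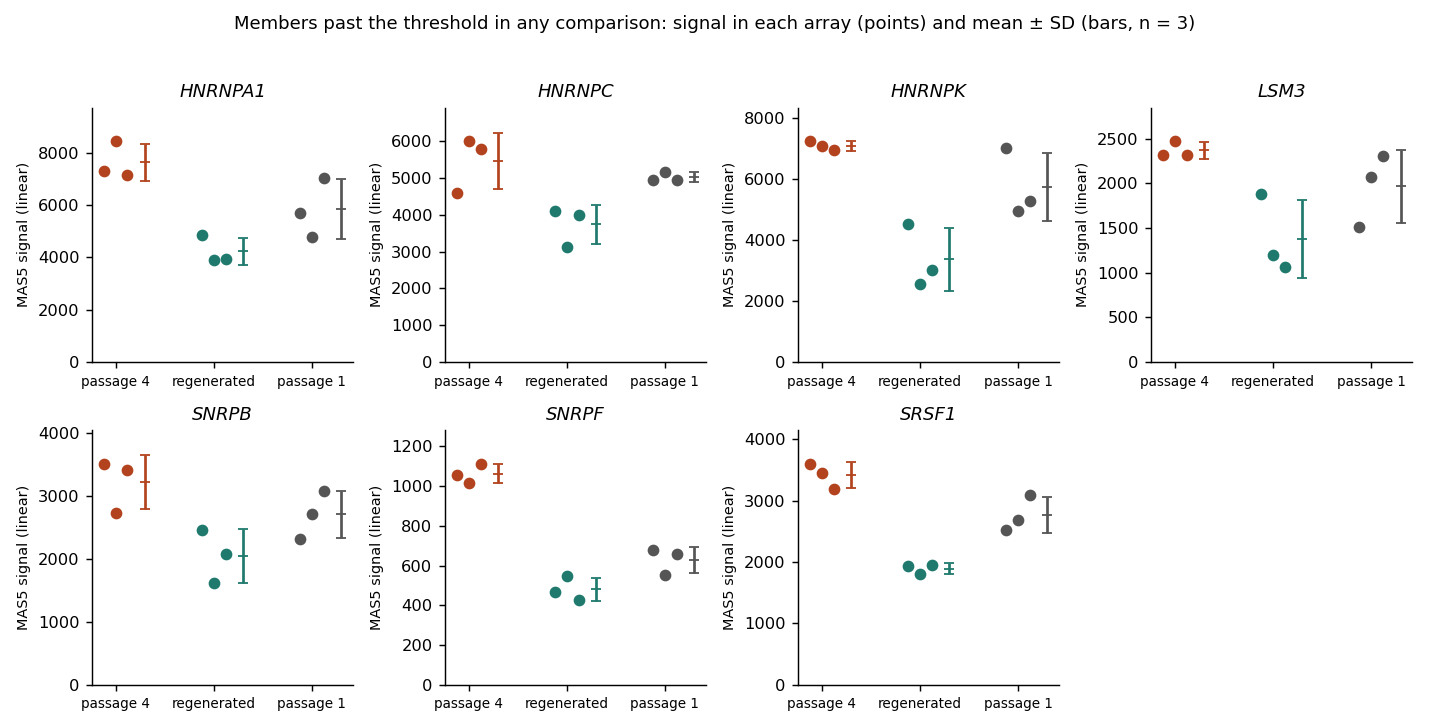
MAS5 signal (linear axis from 0) of the 7 genes that passed in any comparison, with 1 point per array and mean ± SD of 3 arrays beside the points, for passage 4, regenerated and passage 1 cells. In each gene the 3 passage 4 points lie above the 3 regenerated points, and in SNRPF and SRSF1 the 3 groups do not overlap.

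Genes of the SF3A and SF3B complexes, which hold the U2 particle at the branch point, had 0 of 7 past the threshold in any comparison. Their medians were -0.08 in passage 4 against passage 1 (-0.23 with median centring, 0 of 7 higher), -0.12 in regenerated against passage 1 (-0.15) and 0.04 in passage 4 against regenerated cells (-0.09). SF3B1, the branch point subunit, had 2971, 3429 and 2653 in passage 4 arrays, 3715, 3461 and 3871 in regenerated arrays and 3946, 3725 and 3999 in passage 1 arrays. Here the passage 4 arrays lay below all the others, with log2 differences of -0.37 from passage 1 (adjusted p = 0.165) and -0.29 from regenerated cells (adjusted p = 0.197). SF3A3, a subunit of SF3A, had 2127, 2191 and 2233 at passage 4 and 1765, 1541 and 1564 in regenerated cells, against 1759, 1863 and 2333 at passage 1. Passage 4 and regenerated arrays of SF3A3 did not overlap, and their difference of 0.43 did not pass (adjusted p = 0.0995). SF3B6, which contacts the branch point, averaged 4613 ± 364 at passage 4, 4965 ± 659 in regenerated cells and 4519 ± 513 at passage 1, with an interval from -0.43 to 0.23 for passage 4 against regenerated cells. U2AF2, the large subunit that binds the pyrimidine tract, was too dim to be tested, with signals of 52.6, 13.8 and 35.3 in passage 4 arrays, 31.7, 36.6 and 32.7 in regenerated arrays and 46.3, 50.2 and 28.3 in passage 1 arrays. U2AF1L4, a relative of the small subunit, had 371, 359.7 and 313 in passage 4 arrays and 345, 331 and 373 in regenerated arrays, against 418, 409 and 464 in passage 1 arrays. Both groups lay below all passage 1 arrays, and the log2 differences of -0.30 for passage 4 and -0.29 for regenerated cells did not pass (adjusted p = 0.442 and 0.408). No probe set carried U2AF1 or PRPF8 as its single symbol, so these core factors were not analysed here.

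The PRPF genes had 0 of 9 past the threshold in any comparison, with medians of -0.21 in passage 4 against passage 1 (-0.37 with median centring), -0.12 in regenerated against passage 1 (-0.15) and 0.13 in passage 4 against regenerated cells (0.00). PRPF38A, a protein needed for spliceosome activation, showed the largest difference of the family, with 1084, 742 and 826 in regenerated arrays against 939, 1341 and 2165 in passage 1 arrays (log2 difference -0.67, SE 0.27, adjusted p = 0.173). Its passage 1 arrays spread widely, and array 1 lay within the regenerated range. With labelling kind as a block, which leaves that array out of this comparison, PRPF38A was at -0.95 and past the threshold (adjusted p = 0.0462). PRPF4 and PRPF31, proteins of the U4/U6 particle, were at -0.46 and -0.47 in regenerated against passage 1 cells (adjusted p = 0.263 and 0.381). Regenerated arrays of PRPF4 had 729, 696 and 724 and passage 1 arrays 764, 908 and 1398, without overlap. PRPF19, a ubiquitin ligase of the active spliceosome, had 1899, 1392 and 1471 in passage 4 arrays and 1572, 1205 and 1560.5 in regenerated arrays, against 1694, 2045 and 2223 in passage 1 arrays. Regenerated arrays of PRPF19 lay below all passage 1 arrays (-0.46, adjusted p = 0.182). PRPF4B, a kinase of splicing proteins, was higher at passage 4 in all 3 arrays than in any regenerated array, with 1481, 1698 and 1555 at passage 4 against 1239.8, 1043 and 1133 in regenerated cells, and the difference of 0.47 did not pass (adjusted p = 0.11).

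Of the LSM genes, LSM3 passed in passage 4 against regenerated cells, and none of the 6 passed in the other comparisons. LSM3, a subunit of the ring on U6 RNA and of the ring that acts in mRNA decay, had 2311, 2475 and 2315 in passage 4 arrays, 1877, 1193 and 1065 in regenerated arrays and 1514, 2072 and 2305 in passage 1 arrays. The passage 4 arrays lay closely together above all others, although the margin over passage 1 array 3 was small, and regenerated array 1 stood above the other regenerated arrays. Its difference between passage 4 and regenerated cells was past the threshold (log2 difference 0.82, SE 0.23, adjusted p = 0.0354), in 13 of 22 alternatives (adjusted p from 0.00729 to 0.137), and was 1.34 with labelling kind as a block (adjusted p = 0.126). LSM2, a neighbour in the same rings, had 2502, 2097 and 2268 at passage 4, 1789, 1483 and 2225 in regenerated cells and 1686, 2118 and 2923 at passage 1, with a difference of 0.33 between passage 4 and regenerated cells (adjusted p = 0.34). LSM6, another ring subunit, had 706, 608 and 661 at passage 4 against 385, 443 and 548 at passage 1, without overlap. Its log2 difference of 0.52 did not pass (adjusted p = 0.216). LSM14A, a protein of cytoplasmic granules of untranslated mRNA and no part of these rings, averaged 2628 ± 175 at passage 4, 3037 ± 308 in regenerated cells and 3021 ± 262 at passage 1. Its passage 4 arrays lay below all regenerated arrays (-0.20, adjusted p = 0.385).

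A few dimmer probe sets differed far more than the brightest probe set of the same gene. Of 31 further probe sets tested, from 20 genes, 19 had the sign of the gene's brightest probe set in passage 4 against passage 1 cells. This held for 20 in regenerated against passage 1 cells and 18 in passage 4 against regenerated cells. Called higher in passage 4 than in passage 1 cells were 3 (9.68%, against 4.79% of all tested probe sets in either direction). Called higher in passage 4 than in regenerated cells were 5 (16.1%, against 12.5%). In regenerated against passage 1 cells 1 was called (3.23%, against 5.49%), that of SRSF1. With labelling kind as a block a dimmer probe set of SRSF11 also passed there, as higher (1.24, adjusted p = 0.0398). Without the block it was at 0.88 (adjusted p = 0.154), and the brightest SRSF11 probe set was at 0.11 with the block. HNRNPR, an hnRNP close to the synaptic RNA carrier SYNCRIP, had 3083, 4176 and 3665 in passage 4 arrays, 3222, 2546 and 2645 in regenerated arrays and 3033, 2524 and 3072 in passage 1 arrays on its brightest probe set, which did not pass. The dimmer one had 744, 674 and 684 in passage 4 arrays, 144, 103 and 135 in regenerated arrays and 415, 100.4 and 177 in passage 1 arrays. Passage 1 array 1, labelled like the passage 4 arrays, was the highest of its group there. That probe set was higher in passage 4 than in passage 1 (log2 difference 1.75, SE 0.38, adjusted p = 0.027) and regenerated cells (log2 difference 2.33, SE 0.38, adjusted p = 0.0044), and with labelling kind as a block these differences were 0.73 and 0.81 and neither passed (adjusted p = 0.385 and 0.35).

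HNRNPUL1, a relative of HNRNPU, averaged 1514 ± 183 at passage 4, 1605 ± 198 in regenerated cells and 1367 ± 46.8 at passage 1 on its brightest probe set. Its dim probe set had 92.1, 209.6 and 210.1 in passage 4 arrays, 14.3, 7.99 and 9.44 in regenerated arrays and 93.8, 7.47 and 7.73 in passage 1 arrays. Again passage 1 array 1 lay with the passage 4 arrays and the other passage 1 arrays with the regenerated ones. The log2 differences were 2.16 from passage 1 (adjusted p = 0.0441) and 2.74 from regenerated cells (adjusted p = 0.00862), and 0.69 and 0.52 with labelling kind as a block (adjusted p = 0.591 and 0.674). The same pattern held for the dim probe set of SF3B1, with 207, 366 and 288 in passage 4 arrays, 31.1, 20.2 and 20.0 in regenerated arrays and 358, 15.1 and 26.4 in passage 1 arrays. It was higher in passage 4 than in regenerated cells by 2.91 (adjusted p = 0.0216), while the brightest probe set was at -0.29, and with the block it was at -0.46 (adjusted p = 0.665). LSM6 is different, since no passage 1 array stood apart on its dimmer probe set, with 146, 181 and 167 in passage 4 arrays, 113, 105 and 98.9 in regenerated arrays and 57.2, 69.6 and 76.6 in passage 1 arrays. It was called higher in passage 4 than in passage 1 cells (log2 difference 1.11, SE 0.23, adjusted p = 0.0219), and with the block was at 1.30 (adjusted p = 0.0792).

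**Figure D3:**
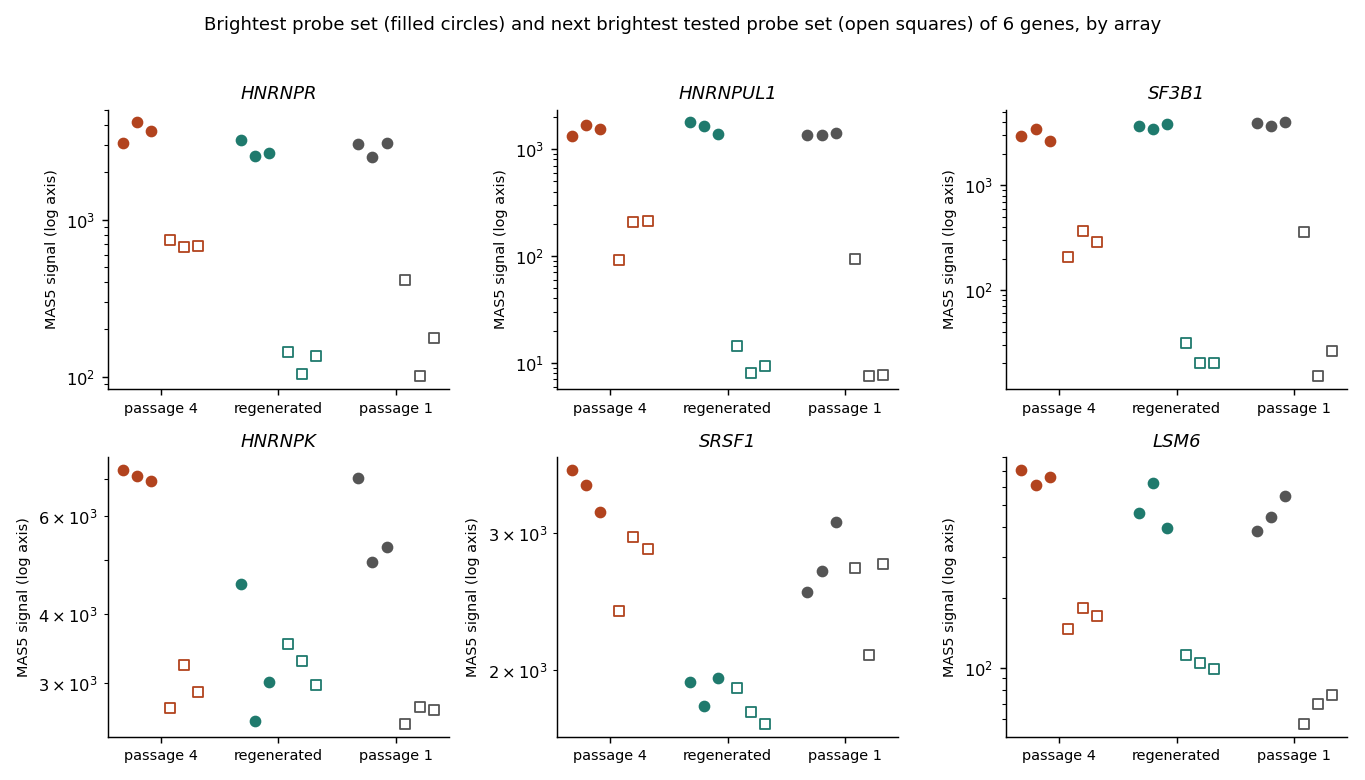
MAS5 signal (log axis) of the brightest probe set (filled circles) and the next brightest tested probe set (open squares) in each array of passage 4, regenerated and passage 1 cells for 6 genes. In HNRNPR, HNRNPUL1 and SF3B1 the squares of passage 1 array 1 lie far above those of passage 1 arrays 2 and 3, and in HNRNPK the squares do not follow the circles.

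Taken array by array, the median of the 61 genes, as a log2 deviation from the mean of the 3 group means, was 0.14, 0.17 and 0.11 at passage 4. Regenerated arrays had -0.09, -0.22 and -0.09, and passage 1 arrays had -0.09, -0.07 and 0.19. Passage 1 array 3 thus lay with passage 4, and the other passage 1 arrays with regenerated cells. Without that array the median in passage 4 against passage 1 cells was 0.12, and in regenerated against passage 1 cells it was -0.06. Genes of dividing cells differed by more. Of 14 tested, 6 (42.9%, against 4.79% of all tested probe sets) rose in passage 4 against passage 1 cells (median 1.04) and 10 (71.4%, against 12.5%) were higher in passage 4 than in regenerated cells (median 1.35), and all 14 were higher in both. Under the labelling block these differences hinge on passage 1 array 1, as do those of the splicing genes. Block calls thus decide neither and are not given here. The medians of the 61 splicing genes were larger with the block (0.20 against passage 1, 0.46 against regenerated cells) than without it (0.08 and 0.22). So were 4 of the 6 and 8 of the 10 log2 differences of dividing cell genes. Block values ran from 0.65 to 1.96 over the 6 and from 0.94 to 2.80 over the 10. In regenerated against passage 1 cells 0 passed, with a median of -0.33. Their summed signals ran from 21724 to 22277 in passage 4 arrays, 6814 to 12868 in regenerated arrays and 10032 to 14253 in passage 1 arrays. The labels call the passage 4 cells senescent, and their levels of these genes were the highest. Whether the difference in dividing cell genes plays a part in that of the splicing genes was not tested.

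**Figure D4:**
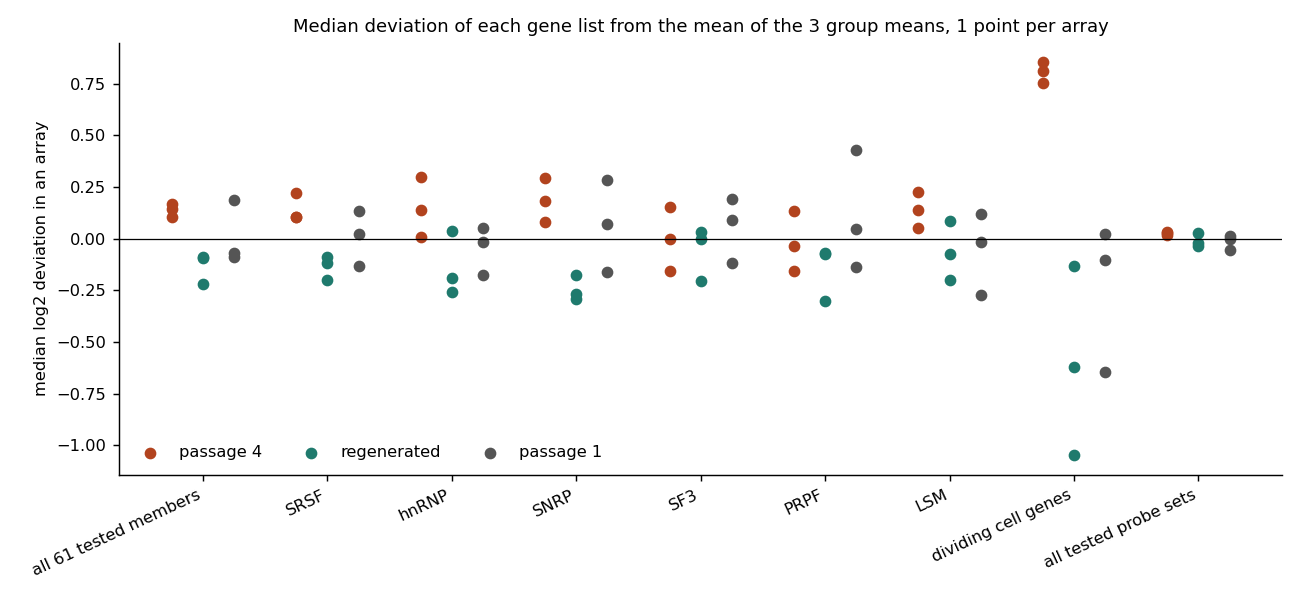
Median log2 deviation of each gene list from the mean of the 3 group means, with 1 point per array, for passage 4, regenerated and passage 1 arrays (vertical axis: log2 of signal + 16). For all 61 tested genes the passage 4 points lie from 0.11 to 0.17, the regenerated points from -0.22 to -0.09, and 1 passage 1 point at 0.19 lies apart from the other passage 1 points.

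Of the 61 genes, the 3 that followed the median profile most closely over the 9 arrays were SF3A3, HNRNPM and HNRNPA1, with Pearson r of 0.954, 0.934 and 0.928. These values describe likeness only, since the genes share arrays and enter the median themselves. The lowest values were those of SRSF6 (r of -0.74) and LSM14A (r of -0.57). On the brightest probe sets used here both were lower in passage 4 than in regenerated cells without passing. The next brightest probe set of SRSF6 was higher there (0.31).

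Among further spliceosome proteins, export genes, kinases of SR proteins and snRNP assembly genes the share called was below or near that of all tested probe sets. Among 36 further spliceosome proteins tested, 0 passed in passage 4 against passage 1 cells (against 4.79% of all tested probe sets) and 1 (2.78%, against 5.49%) fell in regenerated against passage 1 cells. That gene is DDX39A, an RNA helicase of the export pathway, with 1771, 1504 and 1695 in regenerated arrays and 2109.6, 2668 and 3102 in passage 1 arrays (log2 difference -0.65, SE 0.17, adjusted p = 0.0487). Higher in passage 4 than in regenerated cells were 3 of the 36 (8.33%, against 12.5%), DDX39A (0.96), RBM17 (0.70), a U2-associated factor, and SNW1 (1.22), a core protein of the active spliceosome, and 0 were lower. Of 13 genes of the exon junction complex and mRNA export, ALYREF, an export adaptor, was higher in passage 4 than in regenerated cells (log2 0.86, adjusted p = 0.0189), and no other call was made (7.69%, against 12.5%). Under the block the fall of DDX39A passed (-0.79, adjusted p = 0.0212), and the 4 differences between passage 4 and regenerated cells did not (adjusted p from 0.0600 to 0.651), although those of DDX39A (1.41), RBM17 (0.92) and ALYREF (1.30) were larger than without it and that of SNW1 (0.36) smaller. None of 7 kinases of SR proteins and none of 11 genes of snRNP assembly passed in any comparison.

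Of 27 other splicing regulators, 2 (7.41%) rose in passage 4 against passage 1 cells, against 2.71% of all tested probe sets (4.79% in either direction). In regenerated against passage 1 cells 1 fell (3.7%, against 2.51%, or 5.49% in either direction). Higher in passage 4 than in regenerated cells were 4 (14.8%, against 8.14%, or 12.5% in either direction). Every passage 4 array lay above every passage 1 array in 9 genes (33.3%, against 15.3%) and above every regenerated array in 12 (44.4%, against 20.1%). The opposite held for 1 gene in each comparison (3.7%, against 9.61% and 16.1%). PSPC1, a protein of nuclear paraspeckles, had 675, 652 and 665 in passage 4 arrays, 211, 93.8 and 84.1 in regenerated arrays and 278, 169 and 308 in passage 1 arrays. The passage 4 arrays stood above all others, and the difference passed against passage 1 (log2 difference 1.39, SE 0.32, adjusted p = 0.0345) and against regenerated cells (log2 difference 2.33, SE 0.32, adjusted p = 0.00211). KHDRBS1, known as Sam68, had 2260.1, 2613 and 2868 in passage 4 arrays, 1726, 655 and 1003 in regenerated arrays and 1373, 689.6 and 1189 in passage 1 arrays, again with passage 4 highest. It was higher than at passage 1 by 1.29 (adjusted p = 0.0467) and than in regenerated cells by 1.29 (adjusted p = 0.026). CELF2, a regulator of alternative splicing, had 74.7, 119 and 66.7 in passage 4 arrays, 15.3, 18.4 and 19.6 in regenerated arrays and 373, 82.2 and 167 in passage 1 arrays. It fell in regenerated cells against passage 1 cells (log2 difference -2.50, SE 0.43, adjusted p = 0.00702), was higher in passage 4 than in regenerated cells (1.57, adjusted p = 0.0325), and its passage 1 arrays spread widely. RBMX, which encodes hnRNP G, was higher in passage 4 than in regenerated cells (log2 0.73, adjusted p = 0.0354). The fall of CELF2 also passed with labelling kind as a block (-1.99, adjusted p = 0.01), and neither the 2 calls against passage 1 nor the 4 between passage 4 and regenerated cells did. Under that block the differences from passage 1 were 0.90 for KHDRBS1 and 1.21 for PSPC1. Between passage 4 and regenerated cells they were 2.06 for PSPC1, 1.06 for RBMX, 0.69 for KHDRBS1 and 0.04 for CELF2 (adjusted p from 0.133 to 0.979).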

How the data were processed

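The authors deposited linear intensities per probe set, which the submitters' processing notes name as MAS5 signals, with no version or scaling target given. Each array had a mean of 500.1 after trimming 2% at each end, so values were used without further normalization. Of 24123 probe sets, 124 controls were left out, and 15299 with at least 3 of 9 arrays above their own 40th percentile were tested. Values were taken as log2(signal + 16), which understates differences of dim genes. All arrays were fitted in limma 3.58.1 (R 4.3.3; lmFit, eBayes with intensity trend; 6 residual and 5.65 prior degrees of freedom), two-sided, with Benjamini-Hochberg adjustment over all tested probe sets and a threshold of 0.05. The fit was tested on simulated data. Symbols came from the platform annotation, and the Entrez identifiers of all 62 genes were found in RefSeq's Sscrofa11.1 table, with 0 symbols changed. The files name no genome build, so no coordinates are printed. Genes were named if they passed, were among the 6 largest changes of a comparison, were the brightest or most changed of a family, belonged to a panel of 21, or had probe sets that disagreed. Members, lists and tests were chosen with earlier results of these data known. Alternatives covered the pseudocount, filter, normalization, variance model, arrays fitted, labelling kind, replicate numbers, probe set choice and each array left out.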

Additional observations from a re-analysis of the deposited data

Results flagged for a closer look

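In 7 genes the effect of passage 4 and the effect of regeneration, both taken against passage 1, differed past the threshold in limma. Their share of 11.5% was near the 12.5% of all tested probe sets and the 10.7% of the named genes. The difference is that of passage 4 minus regenerated cells on the log2 scale. It was 1.13 for the Sm ring gene SNRPF (adjusted p = 0.00396) and 0.66 for SNRPB (adjusted p = 0.0426). Among the hnRNPs it was 1.11 for HNRNPK (adjusted p = 0.00658), 0.85 for HNRNPA1 (adjusted p = 0.00798) and 0.54 for HNRNPC (adjusted p = 0.0389). For the SR protein gene SRSF1 it was 0.84 (adjusted p = 0.00504), and for LSM3 it was 0.82 (adjusted p = 0.0354). In all 7 genes every passage 4 array lay above every regenerated array. HNRNPK had a second probe set at -0.15 (adjusted p = 0.518). The passage 4 and regenerated arrays also differed in labelling kind, and in a fit with that as a block the differences were between 0.58 and 1.34 and none of the 7 passed (adjusted p from 0.0989 to 0.34).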

How the results depend on the processing

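Over 183 differences (61 genes in 3 comparisons) and 22 alternatives, 3932 of 4023 alternative values kept their side of the threshold, 62 no longer passed, 23 newly passed and 6 had the opposite sign with a call on one side. Differences that passed nowhere had the opposite sign in 210 of the values that kept their side. The 6 opposite signs with a call came from the choice of probe set. With the second probe set HNRNPK was at 0.30 in regenerated against passage 1 cells and at -0.15 in passage 4 against regenerated cells. HNRNPUL1 and SF3B1 were at 2.74 and 2.91 in passage 4 against regenerated cells, or 1.33 and 1.31 with the mean of the probe sets. In passage 4 against passage 1 cells the count of 1 became 0 with no filter on dim probe sets, median centring, the 6 arrays alone, labelling kind as a block and the replicate block, 3 with the mean of a gene's probe sets and 4 with the second probe set. The median of 0.08 became -0.080 with arrays centred on their median (median centring) and 0.20 with the labelling block. In regenerated against passage 1 cells the count of 1 became 0 with no filter, no intensity trend, the 6 arrays alone and the second probe set. It became 2 with the filter at the 60th percentile, quantile normalization, robust eBayes (SRSF1 added in each) and the labelling block (PRPF38A and SRSF1, without HNRNPK). In passage 4 against regenerated cells the count of 7 became 4 with median centring, no intensity trend and the replicate block, and 0 with the labelling block, and its median of 0.22 became 0.095 with median centring and 0.46 with the labelling block. Leaving out 1 array at a time gave counts from 0 to 1 and medians from 0.05 to 0.12 in passage 4 against passage 1, 0 to 2 and -0.23 to -0.06 in regenerated against passage 1, and 4 to 10 and 0.19 to 0.26 in passage 4 against regenerated cells. The count of 7 was 4 without passage 4 array 2 or 3 or regenerated array 2 or 3, and 10 without regenerated array 1, which added SRSF7 and HNRNPM as higher and PRPF18 as lower. Over all tested probe sets the counts of 733, 840 and 1912 were 150, 926 and 35 with the labelling block, and leaving out 1 array gave 244 to 1403, 291 to 1238 and 895 to 2406. The causes of these changes were not tested. Replicate numbers are shared between groups, and whether they mark pairs is not given. Deviations of arrays with the same number had r from -0.14 to 0.19, with 1 of 9 pairs over 0.1. With so few arrays per group, and passage 1 split by labelling kind, these values cannot exclude pairing. The replicate block gave counts of 0, 1 and 4.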
